A study of Mus musculus with 2 samples.

Results

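To map candidate DLX2 sites, CUT&Tag was done on the embryonic maxillary process, which forms most of the upper jaw, in wildtype C57BL/6 mice at E12.5. In CUT&Tag, an antibody brings a transposase to its target, so that fragments pile up into peaks where the target sits. Places where such peaks crowd together are described here. A stretch under a peak in each of 2 replicate libraries, with at least 1 bp in common, is called a shared region, and those on chromosomes 1 to 19 of mm10 were used. Each was assigned by its midpoint to a fixed window of 100 kb, and those in windows with 5 or more were kept. This gave 486 of 10812 shared regions (4.5%) in 88 windows, called dense windows here. The 88 windows made up 0.366% of the 24046 windows on these chromosomes and 1.21% of the 7298 windows with at least 1 shared region. Under the members lay 482 peaks of replicate 1 and 448 peaks of replicate 2. The members were chosen by the positions of peaks in these same libraries, so their numbers and heights are given as a description, without a test.

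The libraries formed 1 group, with no treatment and no control library used here, and were made with a DLX2 antibody from whole dissected maxillary processes. Such tissue mixes neural crest derived mesenchyme, epithelium, vessels and nerves, so a region cannot be placed in a cell type. The libraries are numbered 1 and 2 as their records are ordered, and no source says whether they came from separate litters. Replicate 1 listed 28061 peaks and replicate 2 listed 62093, with medians of 6 and 9 fragments at the summit. The lists do not give read totals.

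DLX2 is a homeodomain transcription factor of the neural crest and the embryonic forebrain, and homeodomains of this family favour short AT-rich DNA words. Regulatory elements of developmental genes often lie in groups within and around the genes they serve, so that several sites of a factor can fall close together. Peaks can also crowd where a sequence occurs in more copies in the animal than in the genome build, because reads of all copies then pile up on the copy that was assembled. Such places usually carry an excess of reads between the peaks too, which is why the level around each peak was read beside its height. That level, the local background, was recovered for every peak from the fold enrichment and the p-value listed for it. It is given in multiples of the lowest background of the same library, called the floor, which was 0.387 fragments for replicate 1 and 1.1 for replicate 2. A background over 5 times the floor in both replicates is called raised.

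No genome sequence was used here, so the members' own sequences were read only where a RefSeq promoter record of GRCm38.p6 (250 bases before to 50 bases after a gene's start) covered them. Members overlapped 3 such records, and these are shown 5′ to 3′ on the gene's own strand with the bases under the shared region in capitals. They belong to *Ugt1a1* (chr1:88211709-88212008, plus strand), an enzyme that conjugates bilirubin, and to the uncharacterised genes *Gm39264* (chr8:120345205-120345504, minus strand) and *Gm36589* (chr17:13327813-13328112, minus strand).
Ugt1a1: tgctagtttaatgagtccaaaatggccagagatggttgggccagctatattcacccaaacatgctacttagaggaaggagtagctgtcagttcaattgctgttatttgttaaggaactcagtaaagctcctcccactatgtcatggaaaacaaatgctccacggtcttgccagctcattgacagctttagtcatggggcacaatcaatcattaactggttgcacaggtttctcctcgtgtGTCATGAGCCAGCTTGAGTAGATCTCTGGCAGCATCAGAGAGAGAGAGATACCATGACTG
Gm39264: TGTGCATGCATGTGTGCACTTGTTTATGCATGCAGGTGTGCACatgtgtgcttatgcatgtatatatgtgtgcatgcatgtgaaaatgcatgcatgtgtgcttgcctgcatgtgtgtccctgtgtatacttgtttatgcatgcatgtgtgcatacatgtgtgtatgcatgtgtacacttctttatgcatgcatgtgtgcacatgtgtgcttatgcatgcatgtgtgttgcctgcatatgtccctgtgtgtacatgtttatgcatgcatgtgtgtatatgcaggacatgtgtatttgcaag
Gm36589: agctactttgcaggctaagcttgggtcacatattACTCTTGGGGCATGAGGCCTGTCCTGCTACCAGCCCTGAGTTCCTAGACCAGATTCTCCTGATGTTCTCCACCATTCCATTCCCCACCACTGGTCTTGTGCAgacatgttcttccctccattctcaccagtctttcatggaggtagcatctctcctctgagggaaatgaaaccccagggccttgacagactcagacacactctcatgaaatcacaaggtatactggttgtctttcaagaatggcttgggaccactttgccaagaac

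The region at *Ugt1a1* covered 60 bases of its record. It had a replicate 1 fold of 3.70, a replicate 2 fold of 2.90 and backgrounds of 3.71 and 3.79 times the floor. At *Gm39264* 43 bases were covered, with folds of 6.19 and 3.54 and backgrounds of 2.42 and 2.43 times the floor. The *Gm39264* record is a run of a short word repeated in tandem: TGCATG, or its complement CATGCA, occurred 26 times in it with overlaps counted on both strands. Of 32851 promoter records, 11% held this word at all and 1 record (0.00304%) held it as often, which was *Gm39264* itself. The word was chosen after the sequence had been read. At *Gm36589* 102 bases were covered, with folds of 5.61 and 4.29, and the background was near the floor at 1.1 and 1.21. The letters TAATT or AATTA, a longer form of the TAAT core of homeodomain sites, occurred 0 times in the 3 records. Of all records, 27% held one of them, and 3 records are too few to set against that share. The shorter TAAT and its complement ATTA were not counted. Both can be read in the *Ugt1a1* record, outside the shared region, and ATTA in the *Gm36589* record.

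Copies elsewhere were looked for among promoters, which 64 of the 88 dense windows held. Among the 147 promoter records in dense windows, those of *Tcp10c* and its neighbour *Gm36537*, which overlap each other, matched another record at 90% identity or more over at least 250 bases. Among all records 6.25% of the records had such a match. *Tcp10c* encodes a t-complex protein, and its relatives *Tcp10a* and *Tcp10b* lie on the same chromosome. Their promoter records are shown on the plus strand, with capitals at the letters that differ from *Tcp10c* where the sequences align (chr17:13354322-13354621 for *Tcp10c*, chr17:7324410-7324709 for *Tcp10a* and chr17:13060861-13061160 for *Tcp10b*).
Tcp10c: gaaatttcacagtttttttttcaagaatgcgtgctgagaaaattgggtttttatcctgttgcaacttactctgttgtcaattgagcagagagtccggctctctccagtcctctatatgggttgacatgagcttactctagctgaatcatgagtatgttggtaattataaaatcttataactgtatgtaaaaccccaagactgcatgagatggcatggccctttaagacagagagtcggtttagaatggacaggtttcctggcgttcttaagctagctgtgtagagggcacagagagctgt
Tcp10a: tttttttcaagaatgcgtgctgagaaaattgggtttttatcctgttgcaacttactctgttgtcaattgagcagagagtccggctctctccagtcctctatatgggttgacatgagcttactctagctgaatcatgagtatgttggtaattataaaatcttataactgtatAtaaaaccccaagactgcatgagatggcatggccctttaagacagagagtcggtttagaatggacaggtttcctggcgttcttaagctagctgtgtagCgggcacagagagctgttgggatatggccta
Tcp10b: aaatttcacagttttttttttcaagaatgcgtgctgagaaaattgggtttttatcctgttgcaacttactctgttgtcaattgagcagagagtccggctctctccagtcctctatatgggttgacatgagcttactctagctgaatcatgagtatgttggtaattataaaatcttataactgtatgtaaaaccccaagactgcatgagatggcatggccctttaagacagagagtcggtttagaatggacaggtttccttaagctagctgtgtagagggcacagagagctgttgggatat

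*Tcp10a* differed from *Tcp10c* at 2 of 286 aligned letters. *Tcp10b* differed at 0 of 291 aligned letters, with 2 gaps. The window of *Tcp10c* held 6 shared regions, whereas that of *Tcp10a* held 0 and that of *Tcp10b* held 1. The numbers of peaks were 6 in replicate 1 and 16 in replicate 2 around *Tcp10c*, 0 and 2 around *Tcp10a*, and 1 and 1 around *Tcp10b*. The background around *Tcp10c* was near the floor, with medians of 1.05 and 1.13. The first window was chosen for its number of shared regions and the other two were not, so the counts are not a comparison of copies. How reads that match several copies were placed is not given in the sources used here.

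The number of shared regions per window fell steeply, from 4911 windows with 1 region to 167 with 4. The dense windows just inside the threshold were 66 with 5 regions and 15 with 6. The remaining 7 windows held 7, 8, 8, 9, 10, 11 and 13 regions. Neighbouring members of a window lay a median of 10980.5 bp apart (quartiles 5072.5 and 20845 bp), and 52 of 398 gaps were under 1 kb. In 55 of the 88 windows no regions lay less than 1 kb apart, so at that distance most dense windows were groups of separate short peaks. When regions less than 5 kb apart were joined, 53 windows had fewer than 5 separate places. The map of the fullest windows shows how the peaks lay.

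**Figure D1:**
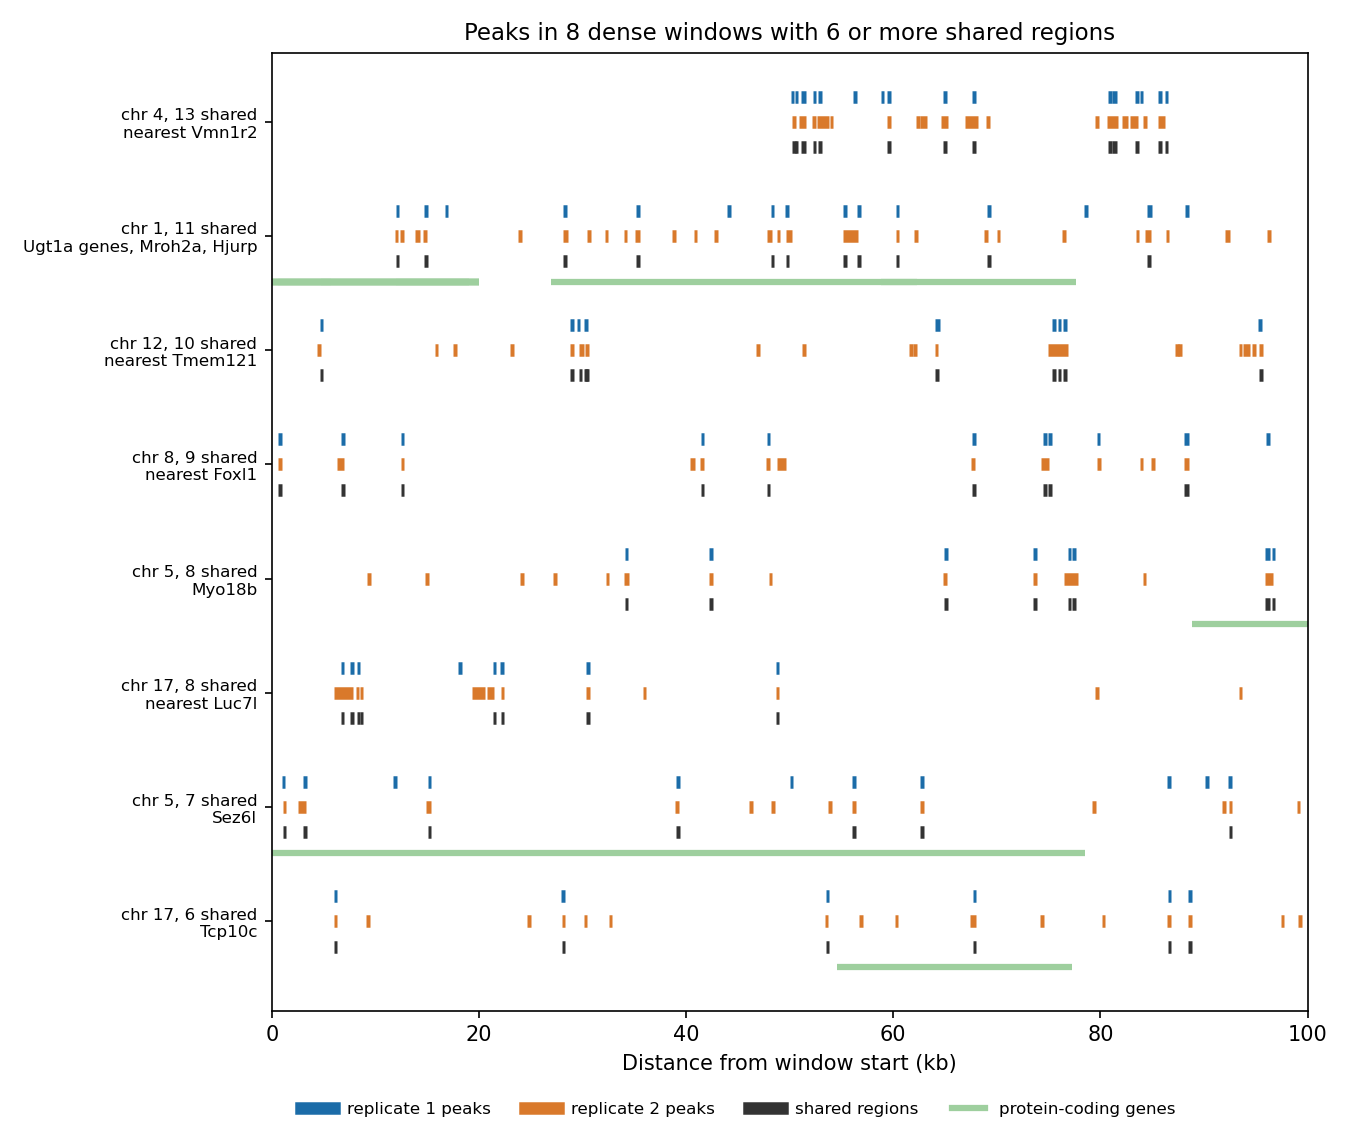
Peaks of replicate 1 (blue) and replicate 2 (orange), shared regions (black) and protein-coding genes (green) in the 7 windows with 7 or more shared regions and 1 of the 15 with 6, by distance from the window's start in kb. On chromosome 4 the 13 shared regions sit in 36054 bp, while in most other windows they are spread over most of the 100 kb.

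Height here means fold enrichment, and by this measure the members were not taller than other shared regions. The median fold was 5.05 in replicate 1 for members and 5.05 for the 10326 shared regions outside dense windows. In replicate 2 it was 4.87 for members and 5.13 outside. What differed was the level on which the peaks stood, and with it the fragments at the summit. The median background went from 1.23 times the floor in windows with 1 shared region to 1.43 with 2 to 4 and 1.82 with 5 or more in replicate 1. In replicate 2 the medians were 1.15, 1.37 and 1.67. Fragments at the summit followed the same order, with medians of 7, 7 and 8 in replicate 1 and 11, 12 and 14 in replicate 2. The submitters' processing notes name MACS2, which takes the background of a library without control from the same library around the peak. Fragments of neighbouring peaks then count in it, and their part cannot be told apart from broad signal here.

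**Figure D2:**
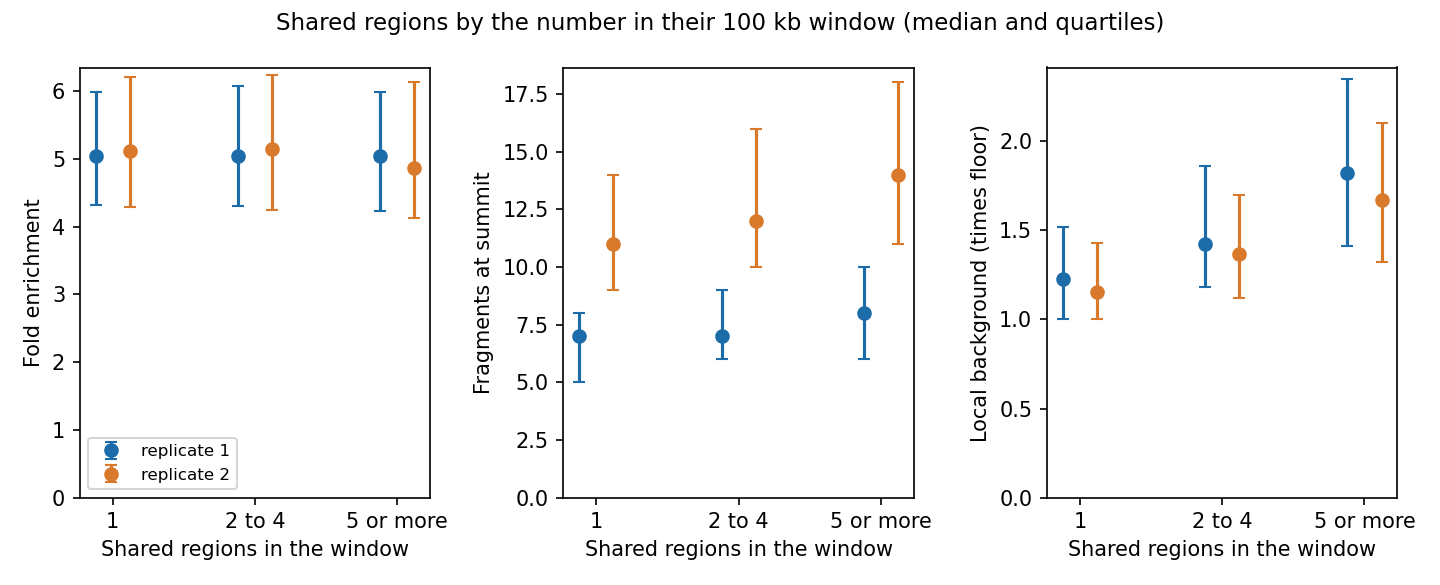
Medians (points) and quartiles (bars) of fold enrichment, fragments at the summit and local background in multiples of the library floor, for shared regions in windows with 1, 2 to 4, or 5 or more, in replicate 1 (blue) and replicate 2 (orange). Fold stays level near 5 while the median background rises, from 1.23 to 1.82 (replicate 1) and from 1.15 to 1.67 (replicate 2).

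The replicates gave the same picture of the background and a looser one of height. Across the 486 members Spearman's rho between replicates was 0.909 for the background and 0.445 for the fold, against 0.855 and 0.440 outside dense windows. These are descriptions across regions, which share libraries and, within a window, much of their background. In dense windows 78.4% of 615 peaks in replicate 1 were met by the other list, as were 49.1% of 913 peaks in replicate 2. In windows with 1 to 4 shared regions the shares were 56.4% and 30.0%. The windows were chosen for shared regions, so higher shares there follow from the rule.

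At the cut of 5 times the floor, a raised background, the first sign of extra copies or broad signal, was limited to few windows. It was found for 29 members, or 5.97% (95% Wilson interval 4.19 to 8.44%), against 0.333% of all shared regions and 7 regions (0.0678%) outside dense windows. These 29 were 80.6% of the 36 raised shared regions on chromosomes 1 to 19, and they lay in 5 of the 88 windows. By window the share was 5.68% (interval 2.45 to 12.6%). Members of a window share much of their background, so the interval over members is too narrow. The highest background of all shared regions, 52.6 and 58.0 times the floor, lay outside dense windows. Raised members had lower folds, with medians of 3.92 and 3.33, and more fragments, with medians of 16 and 33. In 68 windows the median background, taken in the lower replicate for each region, was under 2 times the floor. Over 2 times the floor in both replicates were 27.8% of members, against 7.11% of the regions outside dense windows.

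**Figure D3:**
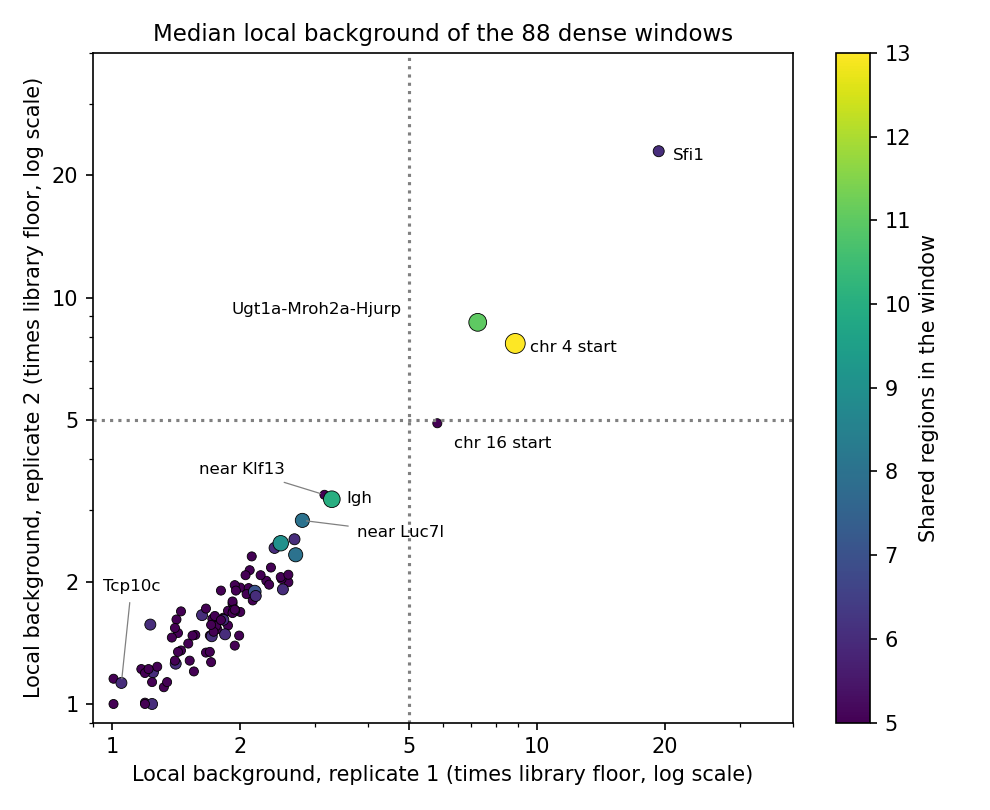
Median local background of each of the 88 dense windows in replicate 1 (horizontal) and replicate 2 (vertical), in multiples of the library floor on log scales, with colour and size for the number of shared regions and dotted lines at 5. Of the windows, 3 lie past 5 in both replicates (*Sfi1*, the *Ugt1a*-*Mroh2a*-*Hjurp* window and the start of chromosome 4), and 68 have a median under 2 in the lower replicate.

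The window with the most shared regions, chr4:3000001-3100000, was the first of its chromosome to carry assembled sequence. Its 13 regions lay within 36054 bp, formed 7 loci when regions less than 1 kb apart were joined, and all 13 had a raised background. The lowest background of the 13 was 7.23 times the floor in replicate 1 and 6.15 in replicate 2, and the highest was 10.4 and 9.57. Folds ran from 3.50 to 7.66 and from 2.96 to 4.25, with 13 to 33 and 22 to 42 fragments. The region with the most fragments in replicate 1, chr4:3067638-3067932, had 33 there and 37 in replicate 2, while the most in replicate 2 were 42, at chr4:3085574-3085859 and chr4:3086216-3086279. No annotated protein-coding gene lay in the window, and the nearest, the pheromone receptor gene *Vmn1r2*, was 85.8 kb away.

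The highest background among dense windows was in *Sfi1*, which encodes a centrin-binding protein of the centrosome. Of the 6 regions in chr11:3100001-3200000, 5 were raised, between 14.0 and 24.8 times the floor in replicate 1 and between 17 and 29.7 in replicate 2. The region with the most fragments, chr11:3193006-3193488, had 57 in replicate 1 and 173 in replicate 2, at folds of 5.46 and 5.16. The longest, chr11:3184300-3185484, spanned 1185 bp with folds of 7.30 and 7.50. The sixth region, chr11:3172507-3172662, had similar folds of 7.53 and 7.14 on a background at the floor, 1.19 and 1, with 10 and 14 fragments. The raised stretch therefore covered part of the gene's regions and not all of them. The region chr11:3196411-3196829 also lay in *Fau-ps2*, a pseudogene of a ribosomal protein gene.

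The third raised window, chr1:88200001-88300000, held 11 regions over 72965 bp, each a locus of its own when those less than 1 kb apart were joined. Joined at 5 kb they made 7 loci. Of the regions, chr1:88255167-88255319 and chr1:88256514-88256628 lay under a single replicate 2 peak of 1471 bp. *Mroh2a*, a HEAT repeat protein gene, held 7 of the 11, among them this pair. *Hjurp*, whose product places the centromeric histone CENP-A, held 2, of which 1 was also in *Mroh2a*. The 9 *Ugt1a* genes, which encode glucuronosyltransferases and have different first exons spliced to common ones, held the same 2 regions between them. Backgrounds were 3.71 and 3.79 at *Ugt1a1*, 8.64 and 8.99 at chr1:88260244-88260331 where *Mroh2a* meets *Hjurp*, and 4.68 and 4.65 at chr1:88284465-88284913 past *Hjurp*. The 8 raised regions lay between these ends, the first of them at the *Mroh2a* end next to the *Ugt1a* genes and the last in *Hjurp*. The last region, outside the genes, was the tallest of the window, with folds of 5.69 and 6.37, while those in *Mroh2a* had folds of 2.99 to 4.2 and 2.39 to 3.56. Replicate 2 had 27 peaks in this window, against 15 in replicate 1.

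The other 2 windows with raised regions had fewer of them. In chr16:3200001-3300000 the 5 regions lay within 8586 bp in 3 loci, with median backgrounds of 5.82 and 4.91, and 2 were raised. Its nearest protein-coding gene, the odorant receptor gene *Olfr161*, was 352 kb away. In chr7:64000001-64100000, between *Klf13*, a zinc finger transcription factor gene, and *Gm45988*, 1 of 5 regions was raised, at 5.46 and 5.43. The backgrounds of the remaining 4 ran from 1.39 to 3.57 and from 1.64 to 3.88, highest beside the raised region. Of the 5 windows with raised regions, 3 started at 3, 3.1 and 3.2 Mb of their chromosome, where the assembled sequence of mouse chromosomes begins beyond the centromere.

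Wide or common peaks were a second sign of broad signal, and they were found in more windows. Of the members, 79 shared a peak of a replicate with another shared region, or 16.3% (interval 13.2 to 19.8%), against 4.94% of all shared regions. These lay in 30 of the 88 windows (34.1%). The share was 8.37% in windows with 2 to 4 shared regions and 0.0407% in windows with 1, where such sharing is hardly possible. A peak split into several regions also helps a window to reach 5, so part of this contrast follows from the rule. A peak of at least 1 kb covered 16 members, or 3.29% (interval 2.04 to 5.28%), against 0.768% of all shared regions, and 9 of the 16 were raised. By joining regions less than 1 kb apart, 24 of 88 windows (27.3%) had fewer than 5 loci, and 55 had as many loci as regions. Segments as short as 2 bp counted as regions, and in some windows replicate 2 listed a wide peak where replicate 1 listed several.

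The clearest such case was chr12:113200001-113300000, at the edge of *Igh*, the immunoglobulin heavy chain locus that B cells rearrange. Its 10 regions formed 5 loci, with median backgrounds of 3.29 and 3.19 and 0 raised. The locus *Igh* held 5 of them, and 3 of these lay under a single replicate 2 peak of 1930 bp, at chr12:113275316-113275747, chr12:113275868-113276095 and chr12:113276408-113276821. Replicate 1 gave these 3 separate folds of 6.57, 3.91 and 5.47, and replicate 2 its single fold of 5.20. In chr17:26300001-26400000, 21.3 kb or more from the splicing factor gene *Luc7l*, 8 regions formed 4 loci, and 2 lay under a replicate 2 peak of 1807 bp. Backgrounds there were 2.80 and 2.83 at the median. The counts of 10 and 8 regions in these windows stand for 5 and 4 places.

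Genes on a broad list of families, which ran from odorant receptors to microRNA, snoRNA and zinc finger genes, were about as frequent in dense windows as elsewhere. Of the 88 windows, 7 (7.95%) held a gene of the listed families, against 8.27% of windows with 1 to 4 shared regions and 9.04% of all windows. In 3 of them such a gene held a member: the *Ugt1a* genes with 2, *Sfi1* with 6 and *Igh* with 5. Each of the others counted only through 1 microRNA, snoRNA or zinc finger gene, which held 0 members. The shares thus describe the list and do not measure how often sequence is present in like copies. *Tcp10c*, which has near-identical relatives and held 1, was not on the list. The 3 windows whose median background was raised in both replicates held 6 promoter records, of which 0 had a match elsewhere in the promoter table. This search saw only promoters, so copies of other sequence were not tested.

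Dense windows were unevenly spread over and along the chromosomes. Chromosome 5 had 15 of them, chromosome 8 had 14, and chromosomes 2, 4 and 16 had 8 each, while chromosomes 3, 15, 18 and 19 had 1 each. As a share of all windows, this was 1.01% on chromosome 5, 1.11% on chromosome 8 and 0.840% on chromosome 16, against 0.0637% on chromosome 3. The part beyond 75% of its chromosome's length held 52 of the 88, or 59.1% (interval 48.6 to 68.8%). Dense windows often lay near one another, so this interval is too narrow. The same part held 35.5% of the windows with 1 to 4 shared regions and 25.6% of all windows. Without the 5 windows with raised regions, 52 of 83 (62.7%) lay there. On chromosomes 4, 8 and 16 most dense windows did, with 7 of 8, 11 of 14 and 7 of 8, but on chromosome 5 it was 5 of 15, and none of its dense windows started beyond 121 Mb. Another dense window lay within 1 Mb of 36 of the 88 (40.9%), against 5.17% of all windows. These ways of describing position were chosen after the windows had been seen.

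**Figure D4:**
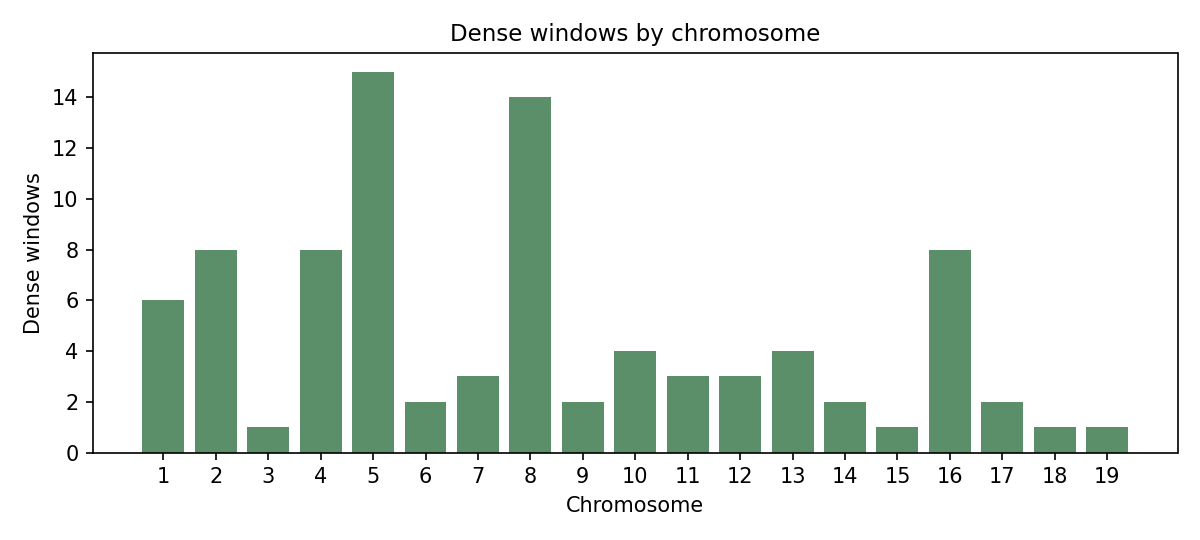
Number of dense windows (bars) on each of chromosomes 1 to 19. Chromosomes 5 and 8 stand highest with 15 and 14, and chromosomes 2, 4 and 16 follow with 8 each.

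Linked within 1 Mb, the dense windows formed 61 stretches, of which 9 had at least 2 windows. The longest, chr5:111400001-114300000, held 9 windows and 52 members, with median window backgrounds of 1.80 to 2.54 times the floor in the lower replicate. These lay above the median of all members, 1.63, and that of shared regions outside dense windows, 1.21. The stretch begins at *Mn1*, a transcriptional coregulator gene needed for the skull and palate, which held 2 members. It then runs through *Sez6l*, a neuronal membrane protein gene with 10, and *Myo18b*, an unconventional myosin gene with 2, to *Acacb*, *Foxn4* and *Myo1h*. In the fullest window of this stretch, chr5:112600001-112700000, 4 of the 8 members lay in the non-coding gene *Gm30529*. The pair at *Myo18b* (chr5:112695878-112696344 and chr5:112696527-112696631) lay under the same replicate 2 peak, with a replicate 2 fold of 7.29 and replicate 1 folds of 6.95 and 5.30.

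On chromosome 8, 2 stretches lay close to the chromosome's end. The first, chr8:119000001-121300000, held 5 windows and 30 members, in *Cdh13*, an adhesion gene, in *Crispld2*, a secreted protein gene studied in facial clefts, in *Gse1*, a gene for a partner of histone deacetylase complexes, and around the forkhead genes *Foxf1* and *Foxl1*. Its window with the most, chr8:121200001-121300000, had 9 members in 8 loci, all 70.0 kb or more from *Foxl1*. Their folds ran from 3.87 to 6.82 and from 3.53 to 5.89 on backgrounds of 1.78 to 2.76 and 1.85 to 2.54. The second, chr8:125000001-126400000, held 5 windows and 27 members in *Disc1*, *Pcnx2* and *Slc35f3*. Chromosome 16 had a stretch of 6 windows and 31 members, chr16:93900001-96300000, in *Cldn14*, a tight junction gene, *Kcnj6*, *Erg*, an ETS transcription factor gene, *B3galt5* and *Sh3bgr*. All windows of these stretches had median backgrounds under 3 times the floor.

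With windows placed as here, the positions of members relative to genes were close to those of other shared regions, with fewer at gene ends. A protein-coding gene held 212 members, or 43.6% (interval 39.3 to 48.1%), against 46.7% of all shared regions. Any gene held 54.7%, against 56%, and 220 members lay in no gene. Within 2 kb of a gene end lay 53 members, or 10.9% (interval 8.43 to 14.0%), against 15.1% of all shared regions. For ends of protein-coding genes the share was 3.91% (interval 2.52 to 6.02%), against 6.45%. With windows shifted by 50 kb, 39.5% of members lay in a protein-coding gene and 13.6% within 2 kb of a gene end. The size of both differences from all shared regions thus depended on where the windows start. By window, 24 had every member in a protein-coding gene and 35 had none there, and 26 windows overlapped no protein-coding gene. Dense windows held a mean of 1.24 protein-coding and 1.11 lncRNA genes, against 1.59 and 0.858 in windows with 1 to 4 shared regions and 1.27 and 0.604 in all windows.

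In all, 106 genes held a member, of which 71 were protein-coding (0.345% of such genes), 31 were lncRNA genes and 3 were pseudogenes. Of the 71, 50 held at least 2 members and 28 held at least 4. They were long, with a median of 101 kb, against 75.8 kb for the 3155 protein-coding genes with any shared region and 17.6 kb for all protein-coding genes. A longer gene overlaps more windows and can hold a member more easily, so part of this contrast follows from the rule. Among protein-coding genes with 5 or more, length ranged from 35.3 kb for *Mroh2a* with 7 members to 1185 kb for *Cdh13* with 5. Gene extents here overlap in places, and a member in several genes was counted for each, as with the *Ugt1a* genes, which share the same 2 members.

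*Slc35f3*, a gene for a thiamine transporter of the nucleotide sugar transporter family, held the most, with 16 of 16 shared regions in dense windows over its 258 kb. Replicate 1 gave them folds of 4.09 to 8.71 on 6 to 13 fragments, and replicate 2 folds of 3.75 to 6.85 on 9 to 17 fragments. The tallest was chr8:126260405-126260729, with 13 and 17 fragments. A further member, chr8:126132963-126133457, lay 5.19 kb outside the gene with folds of 7.83 and 6.77. The regions were thus short and of ordinary height, on backgrounds of 1.1 to 2.63 and 1.21 to 2.15. Their number partly reflects close or split peaks. In chr8:126100001-126200000, which includes the member outside the gene, 6 regions formed 4 loci and 4 shared a peak with another region. In chr8:126300001-126400000, 6 regions formed 3 loci when those less than 5 kb apart were joined.

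The other genes that held many members had varied roles. *Kcnj6*, which encodes a G protein gated potassium channel, held 10 members of its 13 shared regions. *Sez6l* held 10 of 10, with folds of 3.52 to 7.89 and 3.52 to 8.06. *Dok5*, an adaptor of receptor tyrosine kinases, held 8 of 8, with folds of 4.32 to 10.4 and 3.62 to 7.53. Its tallest, chr2:170751178-170751467, had folds of 10.4 and 7.53 with 17 and 21 fragments, and 7 more members lay on either side of the gene. *Gse1* held 6 of its 10, *Ak5*, an adenylate kinase gene, 5 of 6, and *Ankrd44*, a gene for a regulatory subunit of protein phosphatase 6, 5 of 6. *Mroh2a* with 7 of 7 and *Sfi1* with 6 of 6 were those of these genes with raised backgrounds. The non-coding gene *C230014O12Rik* held 5 of 5. In all, 19 genes tied at 5 members, and *Ak5*, *Ankrd44* and *C230014O12Rik* come first of them by name only.

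**Figure D5:**
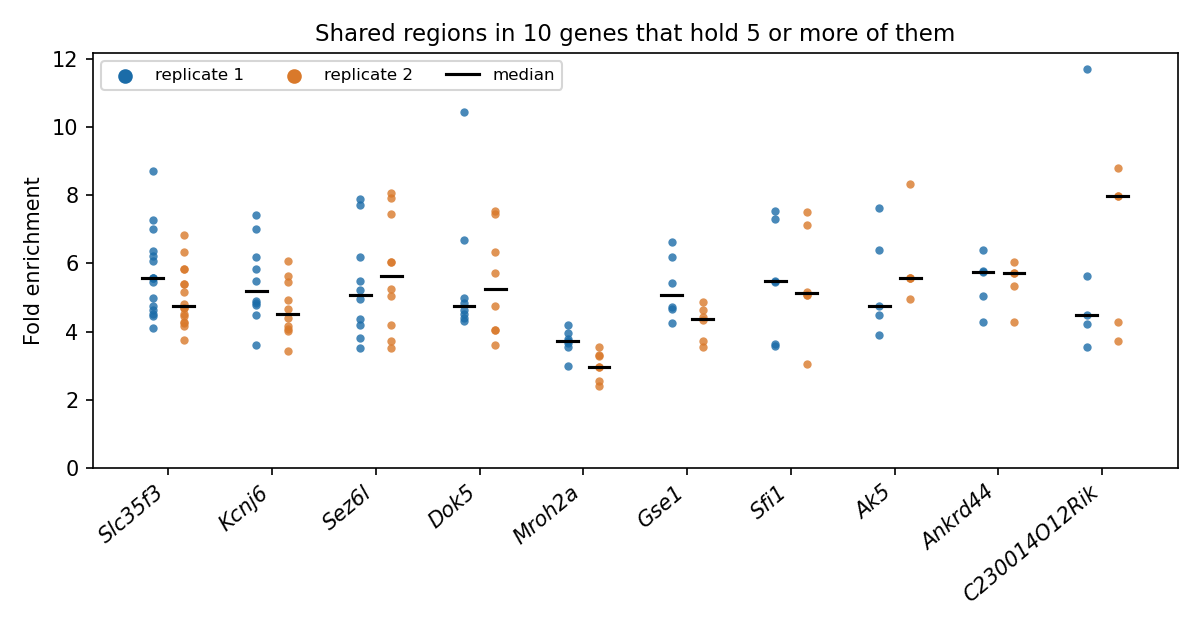
Fold enrichment of every member held by the 7 genes with 6 or more members and by 3 of the 19 genes with 5, in replicate 1 (blue) and replicate 2 (orange), with the median as a black line. Most points lie between 3.5 and 8, and *Mroh2a* lies lowest, with 2.99 to 4.2 in replicate 1 and 2.39 to 3.56 in replicate 2.

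The tallest members lay in windows with 5 or 6 regions. By the fold of the lower replicate, the first was chr17:13367670-13367937 in *Tcp10c*, with folds of 12.1 and 12.6 and 17 and 29 fragments. The remaining 5 members of that window had folds of 4.33 to 9.02 and 4.28 to 7.42. The second was chr2:170633027-170633442, 98.6 kb from *Dok5*, with folds of 11.3 and 12.1 and 24 and 44 fragments. The third, chr4:153157658-153158362, lay in the non-coding gene *Gm31055*, 215 kb from *Ajap1*, with folds of 11.9 and 11.1. The fourth, chr4:152880361-152880672, lay 317 kb from *Nphp4* with folds of 8.94 and 9.50. The fifth, chr2:34024107-34024520 in *C230014O12Rik*, had folds of 11.7 and 8.80. None of these 5 had a raised background, and the highest values were 3.11 at the region near *Dok5* in replicate 1 and 2.84 at the region in *Gm31055* in replicate 2.

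Smaller dense windows held genes of other roles. In chr13:56600001-56700000 the matrix protein gene *Tgfbi* held 1 of 6 members and the non-coding genes *Gm32965* and *Gm33019* held others. In chr13:58600001-58700000 the nucleoside transporter gene *Slc28a3* held 1 of 6. Median folds in replicates 1 and 2 were 6.37 and 5.21 in the first window and 5.80 and 6.26 in the second. These lay above the medians of all members, 5.05 and 4.87. In chr1:180900001-181000000 the non-coding gene *Gm39715* held 3 of 5 members under a single replicate 2 peak of 999 bp, 4.05 to 4.58 kb from *Lefty1*, a Nodal antagonist gene, and *Tmem63a*, an ion channel gene, held 1. Their common replicate 2 fold was 4.43, and their replicate 1 folds were 6.21, 4.70 and 4.70. That window thus has 3 loci for its 5 members.

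A small number of genes known from the face were linked to members. A member lay in, or nearest to, 121 protein-coding genes, or 0.589% of them. Of 108 listed craniofacial transcription factor genes 4 were among these (3.70%), namely *Runx1*, *Foxf1*, *Tbx3* and *Pbx3*. Of 81 listed signalling genes 1 was (1.23%), *Wnt7b*, and of 47 skeletal and matrix genes 0 were. Of 98 adhesion and axon guidance genes 4 were (4.08%), *Cdh4*, *Cdh13*, *Cdh23* and *Ephb2*. By comparison, any shared region was linked to 67.6%, 56.8%, 53.2% and 80.6% of these lists and to 27% of all protein-coding genes. No *Dlx* gene was linked to a member.

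*Runx1*, a transcription factor gene of blood and of skeletal precursors, had 5 linked members between chr16:92824036-92824347 inside the gene and chr16:92879370-92879560, 53.4 kb outside it. Their replicate 1 folds were 7.40, 5.12, 4.24, 5.80 and 7.6 in order of position, and their replicate 2 folds were 7.79, 5.38, 6.82, 5.24 and 5.75. Fragments were 12, 7, 5, 8 and 12 in replicate 1 and 25, 15, 15, 14 and 14 in replicate 2. The region inside the gene was the tallest by the lower replicate. Backgrounds were 1.08 to 1.95 and 1.22 to 2.12 times the floor.

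*Foxf1*, a forkhead gene expressed in facial and visceral mesenchyme, had 5 linked members 94.0 to 151 kb away, all in the same intergenic window. The tallest by the lower replicate, chr8:120932735-120933254, had folds of 7.37 and 9.49 with 13 and 31 fragments. The others had folds of 4.30 to 8.48 and 4.81 to 6.87. *Tbx3*, a T-box gene of limb and facial patterning, had 6 linked members 87.2 to 157 kb away, the nearest of which, chr5:119583172-119583533, had folds of 5.97 and 9.51. The other 5 had folds of 4.12 to 6.6 and 3.94 to 5.80, so the region nearest the gene was also the tallest in replicate 2. *Pbx3*, a gene for a homeodomain cofactor, had 4 linked members 83.3 to 123 kb away inside *C230014O12Rik*, of which 2 shared a replicate 2 peak with a fold of 7.99. *Wnt7b*, a secreted ligand gene, had 3 members 9.02 to 15.5 kb away on either side, with folds of 3.99 to 4.54 and 3.39 to 4.99. Nearest genes were named by distance alone.

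Of the cadherin genes, *Cdh4* held 4 members and *Cdh13* and *Cdh23* held 5 and 4. These are parts of larger numbers, 13 shared regions in *Cdh4*, 14 in *Cdh13* and 9 in *Cdh23*, the rest of which lay in windows with fewer than 5. *Ephb2*, a guidance receptor gene, held 2, with folds of 4.37 and 4.92 in replicate 1 and 3.59 and 6.15 in replicate 2.

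The density rested on peaks of moderate strength. A −log10 q of at least 5 in both replicates was reached by 82 members, or 16.9% (interval 13.8 to 20.5%), and by 15.4% of the regions outside dense windows. A fold of at least 5 in both was reached by 158 members, or 32.5% (interval 28.5 to 36.8%), and by 35.2% outside. When the rule was applied to such peaks alone, 1 window remained in each case, and they were different windows. With the q threshold it was the *Sfi1* window with 5 regions, 4 of them on a raised background. With the fold threshold it was chr16:95800001-95900000, between the ETS gene *Ets2* and the proteasome assembly gene *Psmg1*, where 4 of the 5 members lay in the non-coding gene *1600002D24Rik*. Its replicate 1 folds were 7.28, 5.30, 5.84, 5.37 and 7.07 and its replicate 2 folds 6.95, 6.14, 5.77, 5.19 and 8.52, on backgrounds of 1.32 to 3.19 and 1.05 to 2.4. Another requirement, that 50% of each peak be in common, left 7 windows, all among the 88, at *Sfi1*, *Runx1*, *Sez6l*, *Myo18b*, *Aym1* with *Wscd2*, *Foxf1* and *Slc35f3*.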

How the data were processed

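Peak lists of 2 DLX2 CUT&Tag libraries from E12.5 maxillary processes were used. Per the labels, nuclei were sonicated, whereas the study's methods describe transposase tagging of fresh cells. The submitters' processing notes name Trim Galore 0.4.5, Bowtie 1.1.2, MACS2 2.2.7 and mm10 without roles, and the methods name bowtie2, so the aligner is uncertain. The authors deposited peaks per library, not pooled, each with a fold enrichment (a ratio to local background), a −log10 p, a −log10 q, and a score. The lowest −log10 q was about 1 in each list, a q of 0.1. The lists were used whole, down to this loose threshold, on which the number of dense windows depends.

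Fragments and background were recovered on the assumption that fold is (fragments + 1)/(background + 1) and p an upper Poisson tail. Whole fragments resulted for 100% of peaks (tolerance 0.001). They are inferred and are not counts given by the authors. The steps were also tested on simulated data. Shared segments were formed in Python 3.11.15 (numpy 2.4.6, pandas 2.3.3), and bedtools 2.31.1 gave the same 10812. Genes were RefSeq genes of GRCm38.p6 without strand, so either end stood in for a start, and genes before position 3000000 were left out. Promoters were compared with BLAST 2.17.0 and Biopython 1.88. Intervals are 95% Wilson intervals (statsmodels 0.14.6) and, for the median fold, an interval from ranks, and cover counting error only. Those over regions treat regions as independent, although neighbours share background and sometimes a peak. Those over windows treat windows as independent, although dense windows often lie near one another. Figures used matplotlib 3.10.9.

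Described by name were the 12 windows with the most regions (7 with 7 or more, then 5 of 15 with 6 by summed lower fold), the 5 others with the highest background, the 5 regions with the highest lower fold, the genes in those windows, the 10 genes holding the most members, and genes of 4 lists and of multi-copy families. Members, lists and this rule were chosen with earlier results of these data known. Alternatives were a −log10 q or fold of at least 5, 50% overlap, joined peaks or regions, shifted or larger windows, other thresholds, other gene sets and each replicate alone. No p-value was computed.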

Additional observations from a re-analysis of the deposited data

Results flagged for a closer look

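Outside chromosomes 1 to 19, which the report does not use, the lists held 109 shared regions. On unplaced scaffolds, pieces of sequence that the build could not assign to a chromosome, 2 windows of 100 kb reached 5 or more. One scaffold held 22 shared regions, with medians of 25 and 77.5 fragments in replicates 1 and 2 and backgrounds of 12.1 and 16.2 times the library floor. Another held 7, with medians of 26 and 65 fragments and backgrounds of 16.8 and 15.3. They are singled out because they lie in data that the comparisons leave out, and there was no control library to set them against. Their backgrounds lay below the medians of the *Sfi1* window, 19.3 and 22.9. They lay above those of the other windows with raised regions on chromosomes 1 to 19, which reached 8.89 in replicate 1 and 8.69 in replicate 2. The source of the scaffold regions was not tested.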

How the results depend on the processing

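Of 61 alternatives over 7 values, 20 moved the value by less than its interval or, for counts, by less than 1.5 times, and 41 moved it by more. Among counts, joining peaks or regions less than 1 kb apart left 64 of the 88 windows and 343 of the 486 regions, shifting the windows by 50 kb gave 87 and 486, and leaving out peaks over 5 times the floor gave 83 and 446. The numbers of windows and of regions came to 1 and 5 when a −log10 q of 5 or more was required, 1 and 5 when a fold of 5 or more was, 7 and 36 with 50% of each peak in common, 281 and 1685 with windows of 200 kb, 255 and 1154 with 4 or more regions, and 22 and 156 with 6 or more. With a single replicate they were 851 to 5124 windows and 4844 to 35138 peaks.

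At the q threshold, with 5 regions left, the share in a protein-coding gene was 100%, the share within 2 kb of a gene end 40%, the median lower fold 5.16, the raised share 80% and the share of windows with fewer than 5 loci 100%. At the fold threshold, also with 5 left, these were 0%, 20%, 5.77, 0% and 0%. With a single replicate they were 51.1 to 57.5%, 16.7 to 19.4%, 3.98 to 4.47, 0.174 to 0.888% and 7.79 to 15.7%. The share in a gene was 54.7% with all annotated genes, and that near an end 3.91% with protein-coding genes only. The raised share was 27.8% over 2 times the floor, 1.03% over 10 times, and by construction 0% without peaks over 5 times. Joining regions less than 5 kb apart left 60.2% of windows with fewer than 5 loci. Apart from the smaller or larger sets that the alternatives themselves make, the cause was not tested. No paired analysis was possible because the labels give 1 group and no replicate numbers. Depth limits the lists: a member's summit can rest on as few as 4 fragments in replicate 1 and 6 in replicate 2.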
